A study of Macaca fascicularis with 6 samples.

Results

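The genes described here are 37 factors of blood coagulation and fibrinolysis, with von Willebrand factor (VWF) among them, measured in the liver of cynomolgus macaques (Macaca fascicularis). They were taken as the probe sets whose only annotated symbol was one of the 37 names, which gave 66 probe sets among the 54675 on the array and 37 genes among the 19775 that had such a probe set. Where a gene had several, its brightest probe set over the 6 arrays represents it. The members were bright enough to be tested in 34 cases. The exceptions, F3, PROCR and PLAT, had a mean signal below the median of all probe sets, 129. PLAU lay just inside that limit, with a mean signal of 166 in ligand livers and 122 in vehicle livers, and PLAT just outside it, with 146 in ligand livers and 81.6 in vehicle livers.

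Liver RNA came from 3 animals treated with an LXR ligand and 3 animals given vehicle, with an array for each animal. LXR, the liver X receptor, is a nuclear receptor for oxidised forms of cholesterol. The ligand arrays are titled GW, which the sources used here did not explain, nor did they give the dose, the duration, or the animals' age, sex or genotype. The signals are MAS5 intensities in arbitrary units, read by human Affymetrix probe sets, so each macaque gene carries the human symbol of its probe set and a signal says nothing about the level of another gene. All differences are ligand minus vehicle on the scale log2(signal + 16).

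Coagulation is a chain of plasma proteases that ends in thrombin, which turns soluble fibrinogen into a fibrin mesh. Hepatocytes, the main cells of the liver, make most of its zymogens and cofactors, while VWF, which tethers platelets to damaged vessel walls, comes from endothelial cells and megakaryocytes, and factor VIII in liver comes largely from sinusoidal endothelium. Inhibitors such as antithrombin restrain the chain, and plasmin dissolves the finished clot.

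The tissue and the treatment were checked first. ALB, the serum albumin of hepatocytes, had signals of 156353, 129327 and 148047 in ligand livers and 121612, 153778 and 136323 in vehicle livers. The 3 LXR targets used as a check were higher in each ligand array than in any vehicle array: SREBF1 by a log2 difference of 2.57 ± 0.39 (SE), ABCG1 by 1.31 ± 0.25 and MYLIP by 1.36 ± 0.32. They were chosen with earlier results of these data known and had the smallest p of 8 LXR targets measured. They are therefore no independent check of the treatment. Of the 8, 6 were higher and 2 lower, LPCAT3 at -0.17 ± 0.56 and SMPDL3A at -0.25 ± 0.27 (SE). None of the 8 passed limma's adjusted threshold of 0.05. The replicates were separate animals per the design text. Ligand array 1 stood apart on the first principal component, at -89.8 against 0.632 to 36.8 for the other 5 arrays.

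Among the 34 tested factors, VWF was lower with the ligand by a wide margin, F8, F9 and TFPI were higher by less than a doubling, and none passed the test after adjustment. Of the 34, 18 were higher and 16 lower with the ligand. Their median log2 difference was 0.038, beside 0.0027 over all 13349 genes tested. The lower members made up 47.1%, and 49.7% of all genes tested were lower. Under median centring of the arrays the split was 17 and 17, and the median -0.0052. In limma's moderated test, with Benjamini-Hochberg adjustment over all 27304 probe sets tested, 0 of the 34 passed an adjusted p of 0.05, as did 0% of all probe sets. The count at an unadjusted p under 0.05 was 4 of 34, or 11.8%, where 6.12% of all genes lay under that value. The higher members among them were 3, F8, F9 and TFPI, beside 3.7% of all genes, and the lower member was VWF, beside 2.42% of all genes. In 6 of 34 members, 17.6%, the ligand and vehicle arrays did not overlap, as in 11.4% of all genes. The ligand arrays lay above in 3 members (6.21% of all genes) and below in 3, VWF, PROZ and F11 (5.21% of all genes). A log2 difference of 1 or more in size was found in 1 of 34, VWF, and in 4.55% of all genes. The difference was smaller than 0.5 in size for 29 members and smaller than 0.25 for 24. For 25 members the 95% interval of the difference lay wholly between -1 and 1, within a doubling or halving.

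**Figure D1:**
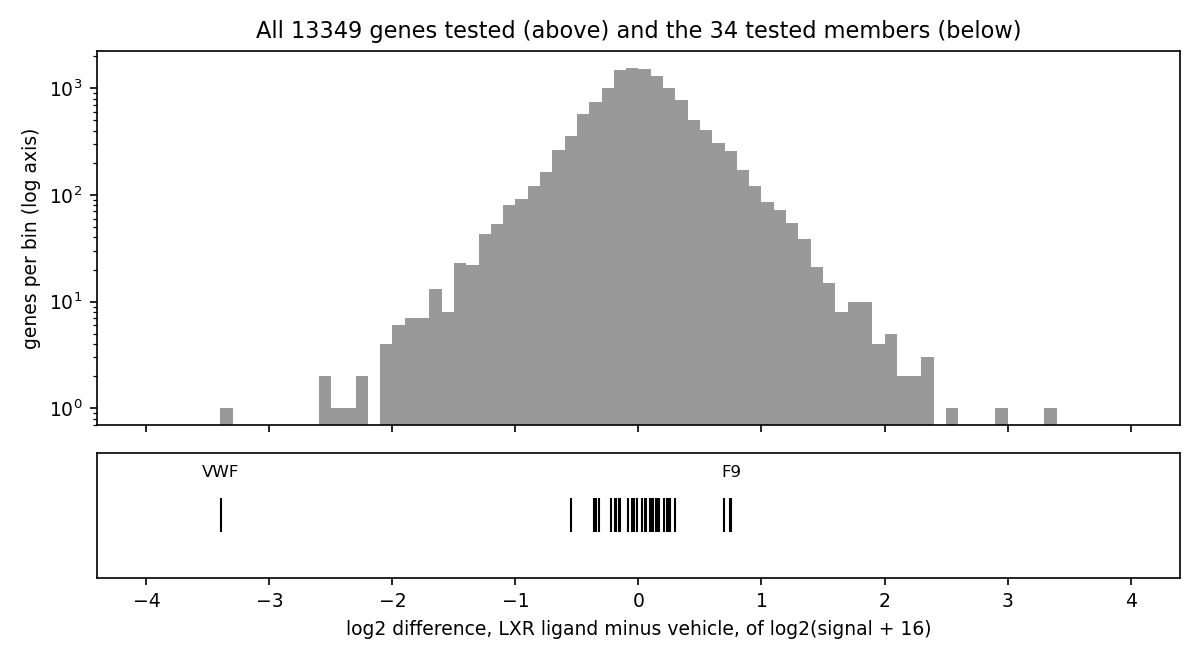
Distribution of log2 differences (ligand minus vehicle, x axis) over 13349 genes, as the number of genes per bin of 0.1 on a log axis, with a tick below for each of the 34 tested members. VWF lies alone at -3.39, beyond every other gene on the left, and most members lie between -0.5 and 0.5.

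VWF had signals of 157, 156 and 377 in ligand livers, against 4667, 2129 and 1340 in vehicle livers. Every ligand array lay below every vehicle array, and the lowest vehicle signal was 3.55 times the highest ligand signal. The vehicle animals themselves differed widely, with 3.48-fold between the highest and the lowest, and the ligand animals by 2.42-fold. The mean signal was 230 ± 128 (SD, n = 3) with the ligand and 2712 ± 1739 (SD, n = 3) with vehicle. The log2 difference was -3.39 ± 0.47 (SE), with a 95% interval from -4.43 to -2.36, a 10.5-fold lower level. It was the most negative of the 13349 genes tested and ranked 2 of 27304 probe sets by its limma p of 2.33e-05. After adjustment over all probe sets that p was 0.319. The rank by p was 9 without ligand array 1, 11 without ligand array 2, 11 without vehicle array 2 and 13 without the intensity trend. With 1 array left out, the difference was between -3.80, when vehicle array 3 was omitted, and -2.91, when vehicle array 1 was. VWF was named among the members with its value known.

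A second probe set of VWF did not show the difference. Below the limit for testing, it had signals of 54.2, 55.4 and 57.2 in ligand livers and 44.6, 75.8 and 75.1 in vehicle livers. The groups overlapped there, at a log2 difference of -0.15 ± 0.55 (SE). The VWF difference rests on 1 probe set.

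**Figure D2:**
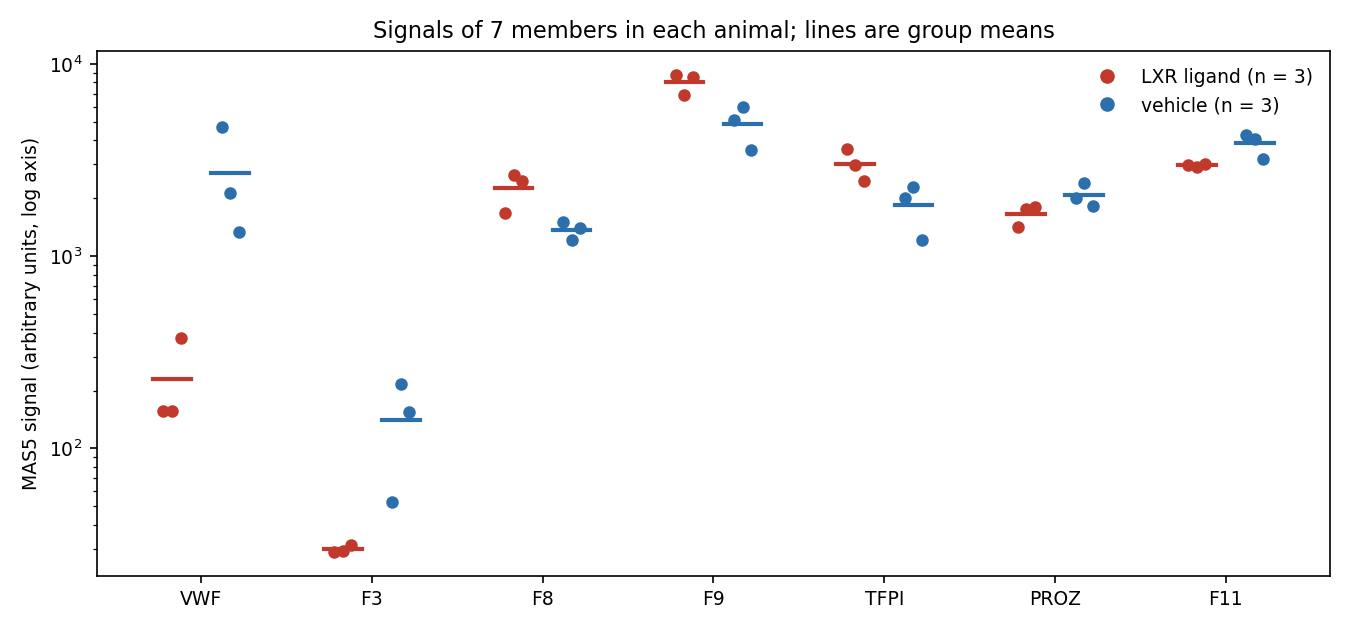
MAS5 signal (log axis, arbitrary units) of VWF, F3, F8, F9, TFPI, PROZ and F11 in each of 3 ligand and 3 vehicle livers, with points for animals and lines for group means. Ligand signals of VWF reach 377 and vehicle signals start at 1340, while for F8, F9 and TFPI the ligand points lie above the vehicle points by less than a doubling of the mean.

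Most other genes of endothelial cells were at higher signals with the ligand, while VWF was lower. Of 17 measured endothelial markers 15 were higher (median log2 difference 0.40). Their summed signal was 12514 to 15338 in ligand livers and 9561 to 11307 in vehicle livers. ENG, a coreceptor for growth factors on endothelium, had signals of 1202, 1485 and 1497 in ligand livers and 959, 726 and 959 in vehicle livers. ECSCR, an endothelial surface protein, had a log2 difference of 0.97 ± 0.34 (SE). ICAM2, an adhesion molecule of endothelium, was at 1.90 ± 0.61 (SE), but it passed the filter on dim probe sets only through the ligand group, with a mean signal of 225 in ligand livers and 52.6 in vehicle livers. PECAM1 and CDH5, which define endothelium, were present in every array, PECAM1 at 1738 to 2326 in ligand livers and 1650 to 1829 in vehicle livers, and CDH5 at 1518 to 1944 in ligand livers and 942 to 1435 in vehicle livers. Macrophage markers were higher too, in 11 of 11 cases (median 0.71), as were 9 of 12 markers of stellate cells and fibroblasts (median 0.38). Other lists outside the hepatocyte line did not share this. Higher there were 2 of 5 cholangiocyte markers (median -0.30), 1 of 4 erythroid markers (median -0.51) and 4 of 8 platelet and megakaryocyte markers (median 0.16). In a piece of liver, fewer cells of a type and less RNA per cell cannot be told apart.

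Set against these 17 markers on the same array, VWF was below their mean in the ligand livers, at -1.71, -1.91 and -0.79 log2 units. In the vehicle livers it was above their mean, at 3.48, 2.14 and 1.53. Signals of different probe sets do not give relative levels, so only the change of this contrast between the groups can be read. The groups did not overlap. The difference in this contrast was -3.85 log2 units, given as a description since VWF was named with its values known. Against 12 markers of liver sinusoidal endothelium it was -3.97. Against 8 platelet and megakaryocyte markers, which had low signals, it was -3.52.

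Platelets also carry VWF transcripts from megakaryocytes. The 8 measured platelet and megakaryocyte markers had a median log2 difference of 0.16, with 4 higher and 4 lower. Their signals were low, with means over the 6 arrays from 153 for GP6 to 404 for SELP, beside the limit of 129 for testing. PPBP, GP9, GP5, TREML1 and PF4V1 fell below that limit. The median was -0.12 without vehicle array 2 and -0.036 without vehicle array 1. Their summed signal was 1943 to 2527 in ligand livers and 1885 to 2308 in vehicle livers. PF4, a chemokine of platelet granules, had signals of 159, 231 and 313 in ligand livers and 240, 65.8 and 302 in vehicle livers. Among 4 measured erythroid markers 3 were lower, with a median of -0.51. Without vehicle array 2 that median was -0.15. HBB, the beta chain of haemoglobin, had 865, 609 and 600 in ligand livers and 11085, 1255 and 828 in vehicle livers. Among the vehicle arrays HBB and VWF fell in the same order, highest in array 1 and lowest in array 3. SLC4A1 and AHSP, the next erythroid markers by p, were instead lowest in vehicle array 1, at 108 and 134. Among the ligand arrays VWF was highest in array 3, where HBB was lowest. With vehicle array 1 left out the VWF difference was -2.91. The part of blood cells and platelets in the VWF difference was not tested.

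Genes of the Weibel-Palade body, the endothelial granule that stores VWF, and of VWF maturation were measured in 13 cases. Of these 12 were higher and 1 lower, at a median of 0.17. The counts were 11 and 2 under median centring, and 8 and 5 without ligand array 1. The list includes PDIA3, CD63, TMED10, P4HB and VAMP8, which many cell types express, at mean signals of 7346 to 23207. ANGPT2 and EDN1 had mean signals of 136 and 199. The cells behind these signals were not told apart. SELP, the P-selectin that shares the granule with VWF, had signals of 365, 425 and 582 in ligand livers and 376, 372 and 303 in vehicle livers. SELP also counted among the platelet and megakaryocyte markers above. FURIN, the protease that removes the VWF propeptide, had a log2 difference of 0.029 ± 0.22 (SE). PDIA3, a disulfide isomerase of the endoplasmic reticulum, had 33657, 27388 and 22523 in ligand livers and 20250, 18801 and 16624 in vehicle livers, with no overlap. ANGPT2, a vessel-destabilising factor of the same granule, was at 0.96 ± 0.64 (SE) and passed the filter only through the ligand group, with a mean signal of 181 in ligand livers and 90.8 in vehicle livers. None of the 13 passed with limma over all probe sets.

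Of 10 measured endothelial transcription factors 7 were higher and 3 lower, or 6 and 4 under either quantile normalization or median centring. Their median was 0.39, at 0.15 without vehicle array 2 and 0.64 without vehicle array 3. ERG and SOX17 also counted among the endothelial markers above, and the cells behind the signals of this list were not told apart. FLI1, a factor of the ETS family, had a log2 difference of 0.70 ± 0.31 (SE) and KLF4, a zinc finger factor, 0.73 ± 0.34 (SE). HHEX, a homeobox factor, had signals of 2757, 2199 and 1876 in ligand livers and 2891, 3145 and 3050 in vehicle livers, all ligand arrays being below. A list of receptors that bind and clear VWF and factor VIII from blood went both ways, 4 of 7 higher and 3 lower. Its median was 0.18, or -0.063 without ligand array 1. LGALS1, counted there among the higher genes, is a soluble lectin and not such a receptor. STAB2, CLEC4M and MRC1 of this list also counted among the sinusoidal endothelial markers. MRC1, the mannose receptor, had a log2 difference of 0.71 ± 0.28 (SE). ASGR2, a chain of the asialoglycoprotein receptor of hepatocytes, had 0.32 ± 0.19 (SE), and LGALS1, a galactose-binding lectin, 1.82 ± 0.65 (SE).

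**Figure D3:**
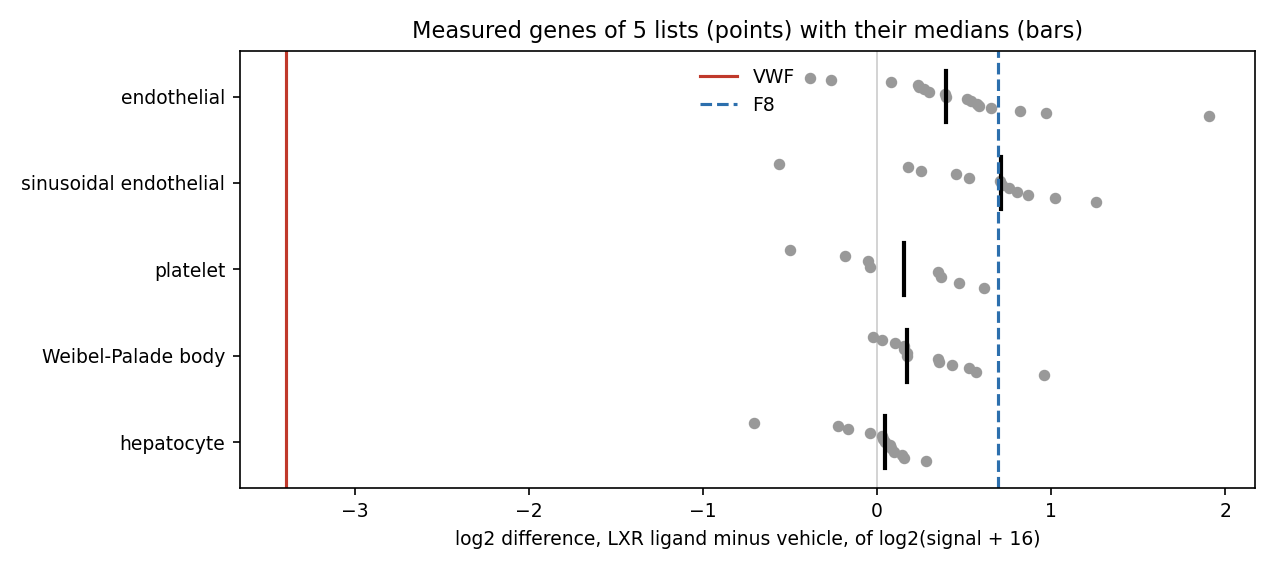
Log2 difference (ligand minus vehicle, x axis) of each measured gene in 5 lists, members of the coagulation set left out, with a bar at each list's median. The VWF line at -3.39 lies to the left of every point, while the F8 line at 0.69 lies close to the sinusoidal endothelial median of 0.71.

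F8 encodes factor VIII, the cofactor of factor IX, and its protein circulates bound to VWF. Its signals were 1681, 2643 and 2461 in ligand livers, against 1502, 1211 and 1406 in vehicle livers. All ligand arrays lay above all vehicle arrays, the lowest of them by a small margin. The log2 difference was 0.69 ± 0.24 (SE), 1.62-fold, and the limma p was 0.0146 before and 0.829 after adjustment over all probe sets. Without ligand array 2 the difference was 0.57. F8 and VWF, whose proteins circulate together, thus differed in opposite directions. Of 12 other markers of sinusoidal endothelium 11 were higher (median 0.71). Their leading genes by p were DNASE1L3, a secreted nuclease, at 0.81 ± 0.25 (SE) and LYVE1, a hyaluronan receptor, at 1.02 ± 0.34 (SE). The summed signal of that list, F8 included, was 37132 to 44166 in ligand livers and 17338 to 33735 in vehicle livers. That sum weighs the brightest genes most: FCN2, DNASE1L3 and CD36, at mean signals over the arrays of 9204, 5133 and 3348. For FCN2 and CD36 the groups overlapped. The part of sinusoidal endothelial cells in the F8 difference was not tested.

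ADAMTS13 encodes the protease that trims VWF multimers. It had a log2 difference of 0.15 ± 0.29 (SE), with overlapping groups, and its other probe set gave 0.11 ± 0.27 (SE). The sign of the first turned to -0.10 without ligand array 3. LMAN1 and MCFD2, the pair of proteins that carries factors V and VIII out of the endoplasmic reticulum, had log2 differences of 0.32 ± 0.25 and 0.72 ± 0.48 (SE). Both had overlapping groups.

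The fibrinogen chains, which form the substrate of the clot and which hepatocytes make in large amounts, had overlapping signals in both groups. FGG, the gamma chain, had signals of 137917, 128186 and 146757 in ligand livers and 116774, 152791 and 138015 in vehicle livers. FGB, the beta chain, had 113618, 116760 and 123086 in ligand livers and 75882, 107877 and 119500 in vehicle livers. The log2 differences were 0.025 ± 0.15 (SE) for FGG, -0.018 under median centring, and 0.25 ± 0.18 for FGB. FGA, the alpha chain, had a log2 difference of -0.036 ± 0.16 (SE), with a 95% interval from -0.39 to 0.32. A dimmer FGA probe set stood at 0.82 ± 0.30 (SE) with no overlap, and the remaining one at 0.049. FGL1, a liver protein related to fibrinogen, had -0.0092 ± 0.20 (SE), or 0.0044 under quantile normalization.

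Fibrinogen is also an acute phase protein, one of those the liver secretes in inflammation. Of 14 other genes of the acute phase response measured, 9 were lower and 5 higher (11 and 3 under median centring), at a median of -0.13. That list also holds IL6R, SOCS3 and STAT3, which belong to the signalling of the response and are not acute phase proteins. All of these were lower, at -0.66 ± 0.27, -0.71 ± 0.58 and -0.15 ± 0.21 (SE). IL6R, the receptor through which interleukin 6 drives the response in liver, had signals of 2869, 3785 and 3721 in ligand livers and 4004, 8386 and 4818 in vehicle livers. SERPINA3 and LBP, secreted in inflammation, had the smallest p of the list, at -1.85 ± 0.32 and -1.34 ± 0.26 (SE). None of the 14 passed with limma over all probe sets.

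Factor XIII crosslinks fibrin. F13B, its carrier subunit, had a log2 difference of 0.23 ± 0.26 (SE). F13A1, its catalytic subunit and a product of macrophages and platelets, was dim, with signals of 37.1, 213 and 192 in ligand livers and 136, 163 and 174 in vehicle livers. Ligand array 1 was far below the other ligand arrays, and the log2 difference of -0.34 ± 0.63 (SE) became 0.34 without it. Macrophage markers were meanwhile higher in 11 of 11 cases, with a median of 0.71 and a summed signal of 20672 to 26349 in ligand livers and 11887 to 16399 in vehicle livers. Their leading genes, MARCO, C1QA and C1QB, stood at 1.23 ± 0.22, 1.62 ± 0.34 and 1.24 ± 0.35 (SE).

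Vitamin K dependent factors carry glutamate residues that are carboxylated before secretion, so that they can bind calcium and membranes. F9, factor IX, had the smallest p of this class. It had signals of 8790, 6896 and 8590 in ligand livers, against 5113, 5953 and 3563 in vehicle livers, with no overlap. The log2 difference was 0.75 ± 0.22 (SE), 1.68-fold, with a 95% interval from 0.25 to 1.25. The limma p was 0.00708 before adjustment and 0.829 after adjustment over all probe sets. Without vehicle array 3 the difference was 0.54, the lowest value when 1 array was left out.

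The other vitamin K dependent factors differed less. PROZ, protein Z, a cofactor for inhibition of factor X, had signals of 1421, 1756 and 1808 in ligand livers, against 2006, 2398 and 1833 in vehicle livers. The ligand arrays lay below, the nearest pair by a narrow gap, and the log2 difference was -0.32 ± 0.21 (SE), with a limma p of 0.165 before adjustment. F2, prothrombin, had -0.15 ± 0.17 (SE), F7, the partner of tissue factor, -0.055 ± 0.25, and F10, the enzyme that activates prothrombin, 0.12 ± 0.21. Anticoagulant protein C (PROC) had 0.14 ± 0.20 (SE) and its cofactor protein S (PROS1) 0.065 ± 0.22. For these 5 the groups overlapped. Of all 7 vitamin K dependent factors 4 were higher and 3 lower, with a median of 0.065.

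The enzymes behind the carboxylation were at differences of either sign. GGCX, the carboxylase, had -0.042 ± 0.24 (SE) by its brightest probe set, and its other 4 tested probe sets were at 0.11 to 0.40. VKORC1, the reductase that recycles vitamin K and the target of warfarin, had 0.17 ± 0.20 (SE). Of 6 further genes of vitamin K handling 2 were higher and 4 lower. That split turned to 4 and 2 without ligand array 2 or 3, or without vehicle array 1 or 2. NQO1, a quinone reductase, had signals of 1713, 2692 and 2291 in ligand livers and 1058, 1359 and 1041 in vehicle livers. That was a log2 difference of 0.93 ± 0.24 (SE) with no overlap. AIFM2, another reductase of vitamin K, had -0.86 ± 0.36 (SE) and VKORC1L1, a paralog of VKORC1, -0.70 ± 0.33, both with overlapping groups. None of the 6 passed with limma over all probe sets.

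The contact system starts coagulation on negatively charged surfaces and releases bradykinin. F11, factor XI, had signals of 2977, 2915 and 3030 in ligand livers, against 4288, 4069 and 3217 in vehicle livers. The 3 ligand arrays were close together and all below the vehicle arrays, with a log2 difference of -0.36 ± 0.19 (SE) and a limma p of 0.088 before adjustment. F12, factor XII, had 0.093 ± 0.16 (SE), with a 95% interval from -0.26 to 0.44. KLKB1, plasma prekallikrein, had -0.088 ± 0.29 (SE) and KNG1, kininogen, the source of bradykinin, 0.11 ± 0.20. KNG1 was highest in ligand array 1, at 76653, and its sign turned to -0.087 without that array.

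F3, tissue factor, the membrane receptor that starts coagulation with factor VII, is low in healthy hepatocytes, and its probe set was too dim to be tested. Its signals were 29.0, 29.2 and 31.3 in ligand livers, against 52.7, 216 and 155 in vehicle livers. All ligand arrays lay below all vehicle arrays. On all probe sets without the filter the log2 difference was -1.61 ± 0.62 (SE), and F3 then joined F8, F9, TFPI and VWF at an unadjusted limma p under 0.05. F5, factor V, the cofactor of factor X, had -0.16 ± 0.20 (SE), while its second tested probe set had 0.31 ± 0.22. Of the protease activated receptors, through which thrombin signals to cells, 1 of 4 listed was tested, F2R, at 0.077 ± 0.76 (SE), with values from -0.80 without vehicle array 1 to 0.66 without ligand array 1.

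**Figure D4:**
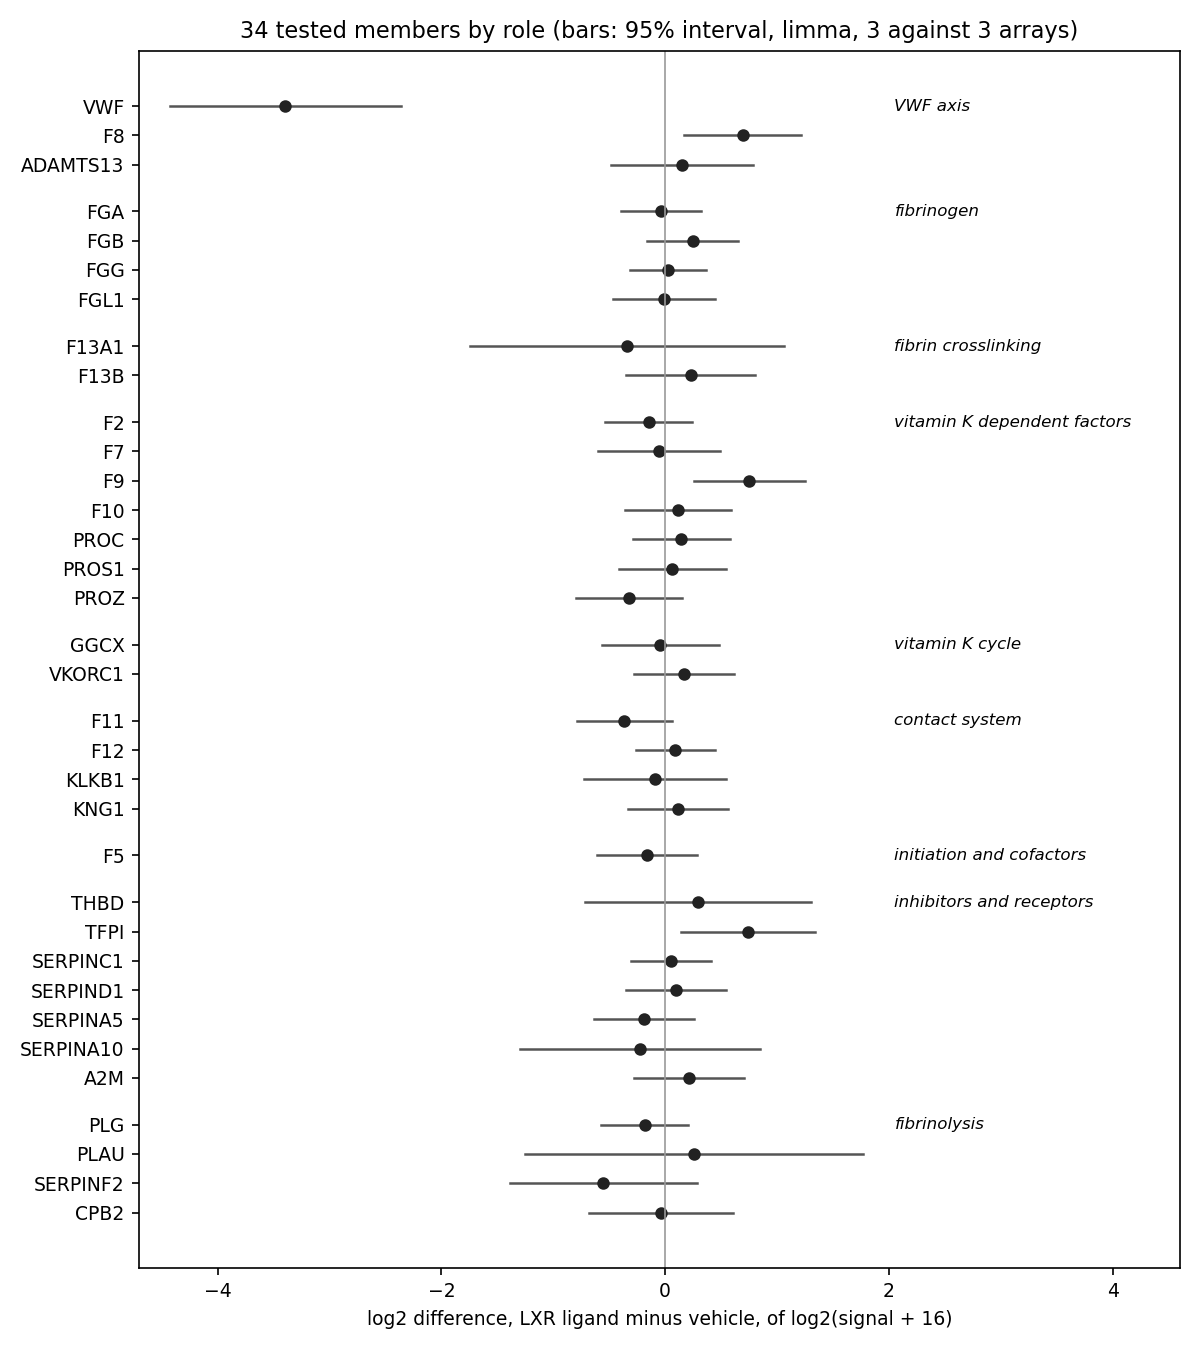
Log2 difference (ligand minus vehicle, x axis) of the 34 tested members grouped by role, with points for the limma estimate and bars for its 95% interval. The intervals of VWF, F8, F9 and TFPI leave out 0, and those of the other 30 members include it.

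TFPI, the inhibitor of tissue factor and factor VII made mainly by endothelium, had the smallest p among the inhibitors. It had signals of 3595, 2987 and 2459 in ligand livers, against 2000, 2290 and 1219 in vehicle livers, with no overlap. The log2 difference was 0.74 ± 0.27 (SE), 1.67-fold, and the limma p was 0.0202 before and 0.838 after adjustment over all probe sets. Its other 3 tested probe sets were higher as well, at 0.42 ± 0.25, 0.66 ± 0.36 and 1.07 ± 0.30 (SE), and the last of these also had no overlap. The fifth, below the limit for testing, was at -0.39. Without vehicle array 3 the brightest was at 0.47. The endothelial marker list moved the same way as TFPI, with the counts given above, and its part in this difference was not tested.

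The plasma inhibitors made by hepatocytes had overlapping groups. SERPINC1, antithrombin, the main inhibitor of thrombin, had signals of 84579, 74178 and 79757 in ligand livers, against 81056, 86523 and 64150 in vehicle livers. The log2 difference was 0.051 ± 0.16 (SE), -0.047 under quantile normalization, and the second probe set gave -0.35 ± 0.30. SERPIND1, heparin cofactor II, had 0.098 ± 0.20 (SE), SERPINA5, the inhibitor of activated protein C, -0.19 ± 0.20, and A2M, a broad protease trap, 0.21 ± 0.22. SERPINA10, the inhibitor that works with protein Z, had -0.23 ± 0.48 (SE), with single arrays from 294 to 933 in ligand livers and from 304 to 887 in vehicle livers.

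The receptors that turn thrombin and protein C to anticoagulant use varied widely between animals. THBD, thrombomodulin, had signals of 317, 565 and 645 in ligand livers and 209, 373 and 778 in vehicle livers, a log2 difference of 0.29 ± 0.45 (SE) that became -0.14 without vehicle array 1. PROCR, the endothelial receptor of protein C, was too dim to be tested, with 9.08, 84.8 and 20.2 in ligand livers and 75.4, 62.9 and 206 in vehicle livers. The groups overlapped for both.

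Among the genes of fibrinolysis, PLG, plasminogen, the precursor of plasmin, had a log2 difference of -0.18 ± 0.18 (SE). SERPINF2, the inhibitor of plasmin, had the most negative value of the tested members after VWF, -0.55 ± 0.38 (SE). Its signals were 1629, 1065 and 1598 in ligand livers and 2449, 3307 and 1085 in vehicle livers, so that the groups overlapped through vehicle array 3. Without that array the difference was -1.01, and without vehicle array 2 it was -0.21. CPB2, a carboxypeptidase that protects fibrin from plasmin, had -0.035 ± 0.29 (SE). The activators were dim. PLAU, urokinase, had 0.26 ± 0.68 (SE) and passed the filter only through the ligand group, and PLAT, tissue plasminogen activator, had signals of 122, 67.1 and 248 in ligand livers and 23.0, 115 and 107 in vehicle livers. Of 8 further genes that control plasminogen activation or bind plasminogen 6 were higher and 2 lower, or 4 and 4 under median centring. Their median was 0.088, and -0.080 without ligand array 1. None of the 8 had an unadjusted limma p under 0.05. SERPINI1, an inhibitor of plasminogen activators, led them at 0.79 ± 0.41 (SE), before PLAUR, the urokinase receptor, at 0.49 ± 0.50 and SERPINE2, a protease nexin, at 0.29 ± 0.30.

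The cells and factors behind the hepatocyte-made members gave a mixed picture. Of 13 hepatocyte markers outside the set 9 were higher and 4 lower, or 7 and 6 under quantile normalization or median centring. Their median was 0.046. TF, transferrin, had the smallest p of them at -0.71 ± 0.32 (SE), followed by AHSG, a plasma glycoprotein, at 0.28 ± 0.17. Of 9 hepatocyte transcription factors measured 2 were higher and 7 lower, with a median of -0.069 that was 0.013 without ligand array 1. FOXA1, a pioneer factor, had signals of 1398, 1775 and 1515 in ligand livers and 2401, 2473 and 2628 in vehicle livers, a log2 difference of -0.68 ± 0.20 (SE). FOXA3, of the same family, had -0.54 ± 0.21 (SE) with no overlap, and CEBPA, a factor of hepatocyte maturity, -0.57 ± 0.22 with overlap. None of the 9 passed with limma over all probe sets. Stellate cell and fibroblast markers were higher in 9 of 12 cases, with a median of 0.38, COL3A1 leading at 1.12 ± 0.29 (SE), then PDGFRA at 0.88 ± 0.32 and DCN at 0.62 ± 0.26. Of 5 cholangiocyte markers 2 were higher, with a median of -0.30, and none was at an unadjusted limma p under 0.05.

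The members differed in how far their several probe sets went together. A single probe set stood for 21 members. Of 11 members with 2 or more tested probe sets, 4 had the same sign on all of them: ADAMTS13, THBD, TFPI and A2M. In FGA, FGB, GGCX, KNG1, F5, SERPINC1 and PLG the signs were mixed, and in each of these the brightest probe set was within 0.25 of 0.

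**Figure D5:**
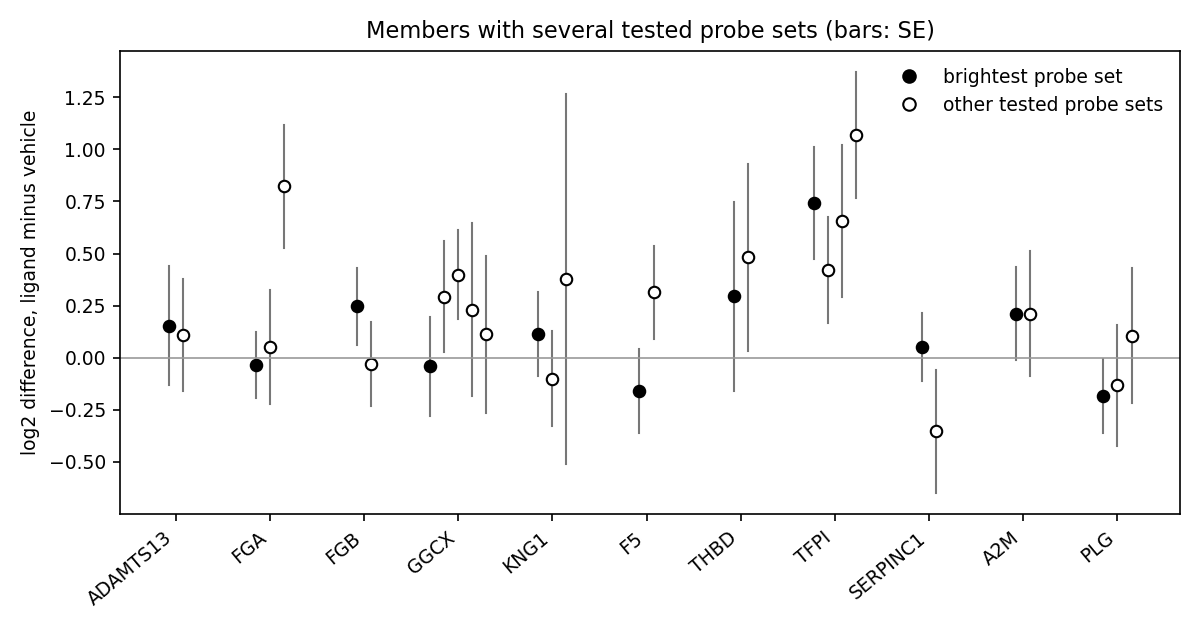
Log2 difference (ligand minus vehicle, y axis) with SE bars for every tested probe set of the 11 members with 2 or more, the brightest probe set filled and the others open. The 4 TFPI probe sets are all above 0, from 0.42 to 1.07, while the GGCX and FGA probe sets lie on both sides of 0.

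The members were also counted by array. Ligand array 1 was the highest of the 6 arrays for 9 of the 34 members and the lowest for 5, although it stood apart over all genes. Vehicle array 3 was the lowest for 8 members, F9 and TFPI among them, and the highest for 2. Without vehicle array 3 the median log2 difference of the members was -0.0071. At that setting 5 members, VWF, F8, F9, F11 and SERPINF2, had an unadjusted limma p under 0.05, so that TFPI left that count. F8 left it without ligand array 2, and TFPI without ligand array 1. The share of all genes under that p was not counted with an array left out.

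The genes most like VWF over the 6 arrays, by Pearson's r of log2(signal + 16) among 13348 other genes tested, were GLI2, HNRNPC, BMAL1, AHI1 and MXI1. Their r ran from 0.979 to 0.995. In each of these genes every ligand array lay below every vehicle array. With 6 arrays in 2 groups such values describe the spacing of the arrays only, the gap between the groups included. MXI1, a factor of the MYC network, had signals of 4451, 5320 and 6192 in ligand livers, against 11580, 9501 and 7528 in vehicle livers. GLI2, a factor of hedgehog signalling, had 327, 341 and 411 in ligand livers, against 731, 579 and 570 in vehicle livers. Their log2 differences were -0.83 ± 0.21 and -0.77 ± 0.26 (SE), much smaller in size than that of VWF.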

How the data were processed

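RNA of each liver was purified on columns and biotin-labelled for 1 Affymetrix array, per the labels' protocols. The authors deposited linear intensity values, which the submitters' processing notes name as MAS5 signals. The MAS5 version, scaling target and filters are not given in the sources used here. Groups came from the array titles. Gene names came from the platform annotation, in which 41097 probe sets had 1 symbol, 1801 several and 11777 none. All 37 members occur as symbols in the macaque annotation of T2T-MFA8v1.1, used for names only.

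The deposited scaling was kept and log2(signal + 16) taken. Without the 62 control probe sets, 27304 probe sets with a mean signal at or above the median were tested, 53 of the members' 66 among them. Two-sided tests used limma 3.58.1 (lmFit, then eBayes with trend) in R 4.3.3, without covariates, with Benjamini-Hochberg adjustment over all probe sets tested. The fit was also run on simulated data with a common SD for all probe sets. In the real data the spread differs between probe sets, so that run does not gauge the power of the fit here. No set test was made, and lists are given by counts and medians. Figures used Python 3.11.15 and matplotlib 3.10.9.

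The members, the 10 pathway lists and the 8 cell type lists were chosen with earlier results of these data known. By rule, values in all arrays are given for VWF, for members with an unadjusted p under 0.05 or non-overlapping groups, and for the 3 brightest members, with up to 3 genes a list by smallest p. Further values by array were chosen after they were seen. The deviations of same-numbered arrays from their group means correlated at 0.040, -0.031 and 0.070, so the numbers were not taken to pair animals. With 3 arrays a group, their number limits the precision.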

Additional observations from a re-analysis of the deposited data

How the results depend on the processing

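Across 16 alternatives (a pseudocount of 1 or 64, median centring, quantile normalization, a filter at the 75th percentile or none, no intensity trend, robust estimation, array weights, the replicate block and leaving out each array) 0 members passed in limma, and 0 at an adjusted p threshold of 0.10. The adjusted p of VWF ran from 0.213 to 0.688. Its log2 difference was -3.14 to -3.49 under the alternatives with all arrays and -3.80 to -2.91 without 1 array. F8 ran from 0.57 to 0.89, F9 from 0.54 to 0.91, TFPI from 0.47 to 0.92, PROZ from -0.41 to -0.21 and F11 from -0.49 to -0.28 without 1 array. With the replicate number as a block, limma called 0 of 34 members and 0 probe sets, and 4 members had an unadjusted p under 0.05. The block changed no call. The share of all genes at an unadjusted p under 0.05 was not counted under these alternatives. The number of probe sets called was 0 to 1 without 1 array, 1 being called without ligand array 2 and 1 without vehicle array 2, neither of them a member. Lower members at an unadjusted p under 0.05 numbered 2 without the filter, where dim F3 was tested too and joined VWF, and 1 to 3 without 1 array, 3 being the value without vehicle array 3. The contrast of VWF with endothelial markers was -4.28 to -3.31 without 1 array and -3.98 to -3.54 under the other scalings and pseudocounts.

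Of the 34 tested members, 16 kept their sign under all of these alternatives and on the mean of their probe sets, and 18 did not. No member that turned had passed any test. Leaving out 1 array, the log2 differences ran from -0.10 to 0.36 for ADAMTS13, -0.10 to 0.025 for FGA, -0.080 to 0.11 for FGG, -0.17 to 0.094 for FGL1, -0.72 to 0.34 for F13A1, -0.22 to 0.12 for F7, -0.061 to 0.27 for F10, -0.059 to 0.19 for PROS1, -0.15 to 0.17 for GGCX, -0.39 to 0.13 for KLKB1, -0.087 to 0.25 for KNG1, -0.32 to 0.026 for F5, -0.14 to 0.77 for THBD, -0.077 to 0.14 for SERPINC1, -0.11 to 0.22 for SERPIND1, -0.72 to 0.18 for SERPINA10, -0.15 to 0.89 for PLAU and -0.24 to 0.12 for CPB2. On the mean of a gene's tested probe sets the sign turned for F5 at 0.077, FGA at 0.28, GGCX at 0.20 and SERPINC1 at -0.15. It turned with array weights for CPB2 at 0.0026 and FGL1 at 0.017, with median centring for FGG at -0.018, and with quantile normalization for FGL1 at 0.0044 and SERPINC1 at -0.047. Other probe sets had the opposite sign in F11 at 0.23, F12 at -0.23, F5 at 0.31, FGA at 0.82 and 0.049, FGB at -0.029, GGCX at 0.29, 0.23, 0.11 and 0.40, KNG1 at -0.10, PLG at 0.11, SERPINC1 at -0.35, TFPI at -0.39 and THBD at -0.82. The cause was not tested.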
